A study of Mus musculus with 27 samples.

Results

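The 10 genes described here encode chains of collagens that build or coat collagen fibrils. Col1a1, Col1a2, Col3a1, Col5a1, Col5a2, Col5a3 and Col11a1 encode fibril-forming chains, and the collagens of Col12a1, Col14a1 and Col16a1 bind to fibril surfaces. The 10 were chosen by gene family, with earlier results of these data known, and are not the whole family. Other fibrillar and fibril-associated collagens, such as Col24a1, are given further below. All 10 were among the 53379 genes of the count table and among the 18758 genes that passed the filter on low counts. RNA was sequenced from hepatic stellate cells (HSCs), the vitamin A-storing pericytes of the liver sinusoid, of male Balb/c mice in 27 libraries. Healthy mice aged 10 to 12 weeks received nothing (n = 4, no vehicle-injected control among these samples). Acute injury was a single intraperitoneal dose of carbon tetrachloride (CCl4, a solvent toxic to hepatocytes) in mineral oil, 0.5 µL per gram body weight, at 10 to 12 weeks of age, and HSCs were isolated 24 h (n = 3), 72 h (n = 4) or 7 d later (n = 4). Chronic injury was the same dose given semi-weekly over 4 weeks, 8 injections in all, from 8 to 10 weeks of age. HSCs were isolated 24 h, 72 h or 14 d after that course (n = 4 each), and age cannot be told apart from the chronic course. HSCs were gated by the ultraviolet fluorescence of their retinoid and lysed without culture. This gate takes cells which still carry retinoid.

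Fibrillar collagens are long helical proteins made of intertwined chains, secreted as procollagens, trimmed outside the cell and packed side by side into fibrils. Type I collagen, from the chains of Col1a1 and Col1a2, and type III collagen, from Col3a1 alone, make up most of the scar in a fibrotic liver. Type V and XI collagens lie inside the fibrils and set their start and width. Types XII, XIV and XVI are fibril-associated collagens with interrupted helices (FACITs), which link fibrils to their surroundings. In healthy liver HSCs store retinyl esters and make little fibrillar collagen, and after injury they are the main collagen-producing cells.

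The libraries held 6314801 to 13052838 counts. Totals below 9000000, called lower depth here, were found in 8 of the 27. These are the complete chronic 14 d group and the first 2 replicates at chronic 24 h and at chronic 72 h. Neither healthy nor any acute group held a lower-depth library, so chronic 14 d could be compared within lower depth only with the other chronic groups. Levels are given as CPM (counts relative to the library total) after scaling by the trimmed mean of M values (TMM), with SD as error. A gene was called changed at an adjusted p below 0.05 and a change of over 2-fold. Log2 fold changes (log2FC) are given with approximate standard errors. Each is the absolute log2FC divided by the square root of the F statistic of its test. All 14 stellate markers checked, such as Lrat and Des, were counted in every group, and their summed level was 25710 to 31650 CPM in healthy HSCs and 9167 to 9889 CPM in chronic 24 h. Macrophage markers (10 genes) summed to 152 to 611 CPM in healthy, 532 to 3619 CPM in chronic 24 h and 4080 to 10600 CPM in acute 7 d, mostly from Lyz2. Markers of portal fibroblasts (12 genes), which also make collagen, summed to 434 to 629.9 CPM in healthy, 587 to 739 CPM in acute 24 h, 780.4 to 1180 CPM in acute 72 h and 881 to 1397 CPM in acute 7 d. They summed to 1163 to 1309 CPM in chronic 24 h, 932 to 1678 CPM in chronic 72 h and 369.6 to 637 CPM in chronic 14 d. Like the collagen share of counts, this sum was higher at acute 72 h, acute 7 d, chronic 24 h and chronic 72 h than in healthy, without overlap. At chronic 14 d the portal fibroblast sum overlapped healthy, while the collagen share did not. This parallel was not particular to portal fibroblasts. Mesothelial markers (8 genes) summed to 6.07 to 18.1 CPM in healthy, and cholangiocyte markers (6 genes) to 56.1 to 103 CPM. Both sums were above healthy without overlap in the same groups, and also at chronic 14 d (45 to 104 and 206 to 368 CPM). In such bulk samples fewer cells of a type and less RNA per cell cannot be told apart, and the part of these other cell types in the collagen levels was not tested.

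The genes are spread over 8 chromosomes, with Col3a1 (ENSMUSG00000026043, chr1:45311538-45349706, plus strand) and Col5a2 (ENSMUSG00000026042, chr1:45374321-45503282, minus strand) as neighbours on chromosome 1 (GRCm38). RefSeq promoters were on hand for 6 of the 10 genes, all but Col1a1, Col5a2, Col12a1 and Col14a1. For Col1a2, 127 of the 250 bases searched lie in annotated exons of the gene. Its promoter is therefore not shown, and its matches, counted among the 6 below, are less certain. The 130 bases before the start site are shown for 4 of the 6. These 4 were chosen because the genes differed in level and course. Col3a1 was the most abundant, Col5a1 was called in no comparison with healthy, Col5a3 fell at acute 24 h and Col11a1 was near the counting limit in healthy HSCs. Capitals mark CCAAT boxes (CCAAT or ATTGG), GC boxes (GGGCGG or CCGCCC) and TATA boxes (TATAAA or TTTATA) on either strand (GRCm38.p6).
Col3a1 (chr1:45311408-45311537, plus strand): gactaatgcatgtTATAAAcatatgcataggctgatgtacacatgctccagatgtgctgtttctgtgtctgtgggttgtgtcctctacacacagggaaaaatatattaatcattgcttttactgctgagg
Col5a1 (chr2:27886295-27886424, plus strand): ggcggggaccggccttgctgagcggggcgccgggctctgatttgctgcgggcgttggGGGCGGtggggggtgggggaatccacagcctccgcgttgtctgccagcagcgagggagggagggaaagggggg
Col5a3 (chr9:20815068-20815197, minus strand): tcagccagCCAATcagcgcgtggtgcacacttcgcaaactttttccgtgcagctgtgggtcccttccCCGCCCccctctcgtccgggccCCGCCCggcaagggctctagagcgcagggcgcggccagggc
Col11a1 (chr3:114030410-114030539, plus strand): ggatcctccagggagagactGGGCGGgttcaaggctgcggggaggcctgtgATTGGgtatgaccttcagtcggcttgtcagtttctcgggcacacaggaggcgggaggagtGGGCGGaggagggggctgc
In the 250 bases before the start, Col3a1 held a TATA box, no CCAAT box and no GC box, and 35.2% of its bases were G or C, against 76.4% for Col5a1, 62.8% for Col5a3, 62.4% for Col11a1 and a median of 52.4% over all 32851 promoters. A GC box was in 5 of the 6 collagen promoters and in 32.7% of all promoters, a CCAAT box in 4 of 6 and 33.8%, and a TATA box in 1 of 6 and 12.4%. The SMAD box CAGAC (or GTCTG) was in 4 of 6 and 42.2%, the TEAD motif CATTCC (or GGAATG) in 1 of 6 and 12.6%, and the AP-1 motif TGANTCA in 0 of 6 and 6.75%. No match overlapped one of another motif, and a match of letters is not a bound site.

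Collagen transcripts took up a larger part of the libraries in every injured group but acute 24 h. The 10 genes together held 0.537% ± 0.0633 of all counts in healthy HSCs (SD, n = 4; range 0.444 to 0.584%) and 0.421% ± 0.0738 at acute 24 h (n = 3), where the ranges overlapped. The share was 2.37% ± 0.955 at acute 72 h and 4.58% ± 1.05 at acute 7 d. After chronic injury it was 2.07% ± 0.293 at 24 h, 2.21% ± 0.434 at 72 h and 0.784% ± 0.139 at 14 d. The 4 chronic 14 d libraries (0.618 to 0.959%) lay above all healthy libraries and below all other chronic libraries (1.7 to 2.41% at 24 h and 1.74 to 2.77% at 72 h). These shares are descriptions, with no test.

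**Figure D1:**
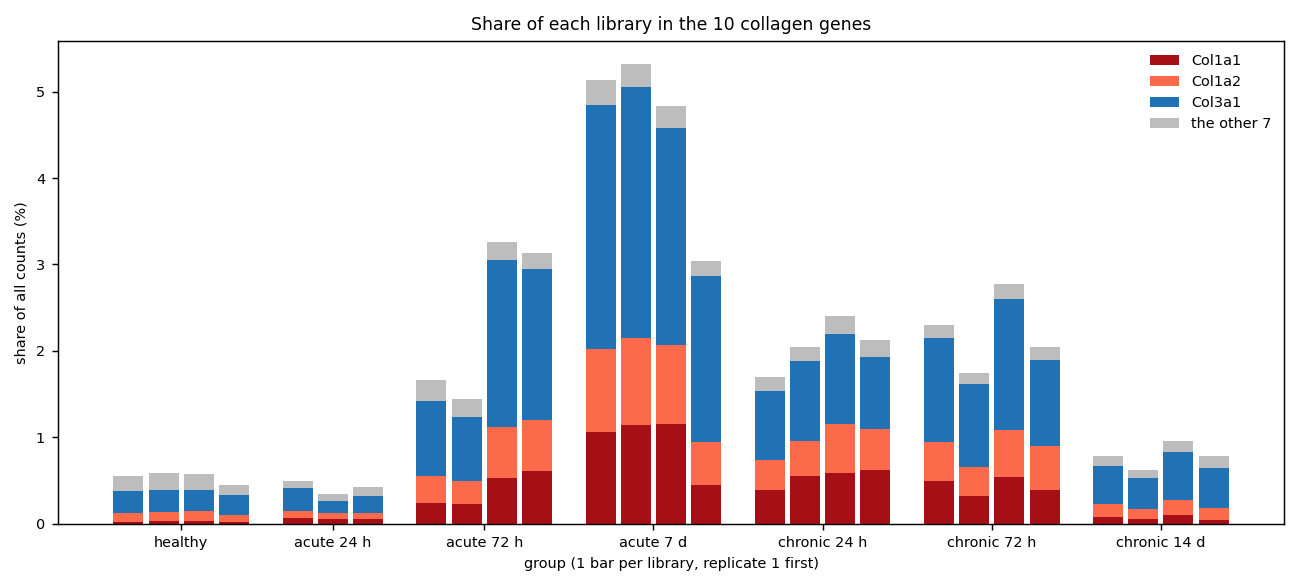
Share of all counts in the collagen genes (y axis, percent), 1 bar per library grouped on the x axis, split into Col1a1, Col1a2, Col3a1 and the other 7 genes. Healthy libraries stand at 0.444 to 0.584% and acute 7 d libraries at 3.04 to 5.32%, with Col3a1 as the largest segment in each library.

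The mix within that share shifted toward Col1a1. Col1a1 gave 4% ± 0.956 of the collagen counts in healthy HSCs, 25.9% ± 3.03 at chronic 24 h and 8.45% ± 2.27 at chronic 14 d. Col1a2 gave 18.5% ± 0.866 in healthy, 18.2% ± 1.22 at acute 7 d, 21.5% ± 1.71 at chronic 24 h and 20.8% ± 2.64 at chronic 72 h. Col14a1 went the other way, from 15% ± 2.8 in healthy to 1.31% ± 0.287 at chronic 24 h and 1.21% ± 0.808 at acute 7 d. Col5a1 fell from 12.2% ± 0.858 to 4.81% ± 0.551 and 2.87% ± 0.358 in the same groups, and Col16a1 and Col5a3 had lower mean shares too. A share also falls where the other genes rise, and the level of Col14a1 was not called lower at acute 7 d. Per kilobase of the principal transcript, which allows a comparison between genes, the mean levels in healthy HSCs were 477 ± 12.9 CPM per kb for Col3a1, 196 ± 26.1 for Col1a2, 152 ± 41.7 for Col14a1, 82.7 ± 13.8 for Col5a1 and 38.9 ± 12.6 for Col1a1. With the union of annotated exons as length, Col14a1 came before Col1a2 in healthy. At acute 7 d Col1a1 was the second most abundant per kilobase under both lengths, with 1578 ± 567 CPM per kb beside 4480 ± 698 for Col3a1 and 1545 ± 412 for Col1a2.

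The comparison with healthy HSCs asks how the collagen genes respond to a first and to a repeated injury. At acute 24 h 2 of the 10 genes were called higher and 3 lower, where 9.41% and 12.5% of all tested genes were called. At acute 72 h 6 were higher and 0 lower (all genes, 8.23% and 4.33%), and at acute 7 d again 6 and 0 (9.23% and 5.64%). After chronic injury 5 were higher and 1 lower at 24 h (11.2% and 8.11%), 6 higher and 1 lower at 72 h (7.88% and 4.2%), and 2 higher and 0 lower at 14 d (4.55% and 1.17%). The median log2 fold change of the 10 genes was -0.34 at acute 24 h, 2.16 at acute 72 h, 2.71 at acute 7 d, 1.83 at chronic 24 h, 1.81 at chronic 72 h and 0.05 at chronic 14 d. The median over all tested genes was between -0.12 and 0.01 in the same comparisons. These 6 comparisons share the 4 healthy libraries. With only libraries of higher depth the count at chronic 24 h was again 6, and at chronic 72 h 6 in place of 7.

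**Figure D2:**
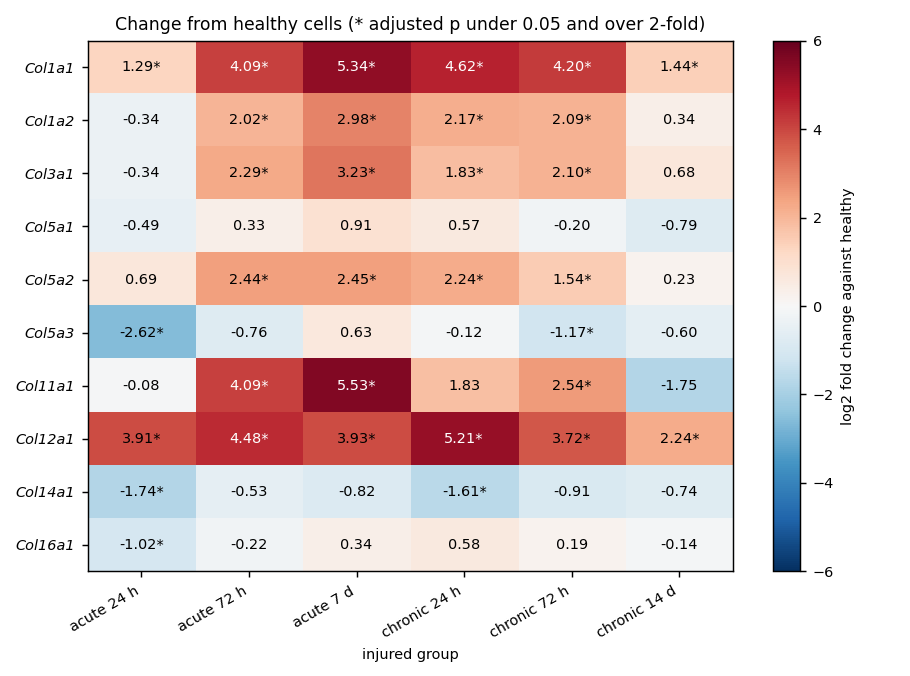
Log2 fold change of each collagen gene (rows) against healthy HSCs in the 6 injured groups (columns); the number and colour give the change, and an asterisk marks an adjusted p below 0.05 with over 2-fold. Col12a1 is called in all 6 columns and Col1a1 in all 6, whereas Col5a1 is called in none.

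Col1a1, which encodes the α1 chain of type I collagen (ENSMUSG00000001506, chr11:94936224-94953042, plus strand), rose in every injured group. Its healthy level was 187, 282, 304 and 148 CPM in replicates 1 to 4, and at acute 24 h it was 616, 528 and 551 CPM. All 3 of these libraries lay above all 4 healthy ones (log2FC 1.29 ± 0.36, adjusted p = 0.00755). At acute 72 h the libraries gave 2346, 2264, 5094 and 5951 CPM, with replicates 1 and 2 apart from replicates 3 and 4. The change from healthy passed the test (log2FC 4.09 ± 0.38, adjusted p = 1.89e-07). The highest levels stood at acute 7 d, with 10030, 10950, 11990 and 4454 CPM, where replicate 4 was the lowest (log2FC 5.34 ± 0.41, adjusted p = 1.32e-08, or 40.6-fold). Chronic 24 h libraries held 3987, 5779, 6301 and 6524 CPM (log2FC 4.62 ± 0.39, adjusted p = 8.93e-09) and chronic 72 h libraries 4676, 2928, 5299 and 4008 CPM (log2FC 4.20 ± 0.38, adjusted p = 8.89e-08). These ranges overlapped each other and that of acute 72 h. At chronic 14 d Col1a1 was still called higher, at 725, 491, 891 and 387 CPM, every library above the healthy range (log2FC 1.44 ± 0.34, adjusted p = 0.00962).

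Col1a2, the α2 chain of type I collagen (ENSMUSG00000029661, chr6:4504814-4541544, plus strand), started from a higher level and was first called at acute 72 h. It was 1025, 1105, 1196 and 868 CPM in healthy and 953, 729 and 796 CPM at acute 24 h, overlapping ranges with no call (log2FC -0.34 ± 0.27, adjusted p = 0.357). At acute 72 h it reached 3052, 2566, 5775 and 5674 CPM (log2FC 2.02 ± 0.26, adjusted p = 6.33e-06), with the same split between replicates as Col1a1. Acute 7 d libraries held 9017, 9587, 9468 and 4975 CPM (log2FC 2.98 ± 0.27, adjusted p = 7.7e-08). Chronic 24 h and chronic 72 h ranged over 3618 to 6094 and 3158 to 5337 CPM, changes of 2.17 ± 0.26 and 2.09 ± 0.26 (log2FC) that both passed the test (adjusted p = 1.12e-06 and 4.48e-06). By chronic 14 d it was 1353, 1158, 1545 and 1240 CPM and was not called (log2FC 0.34 ± 0.25, adjusted p = 0.456).

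The balance of the type I chains changed within each library, a measure that does not depend on scaling between libraries. Col1a1 had 0.212 counts per Col1a2 count in healthy HSCs (mean log2 ratio -2.24 ± 0.31, SD, n = 4), 0.687 at acute 24 h, 0.89 at acute 72 h, 1.1 at acute 7 d, 1.2 at chronic 24 h, 0.943 at chronic 72 h and 0.45 at chronic 14 d. No injured library overlapped the healthy ones in this ratio. Each group of 4 gave an exact two-sided permutation p = 0.0286 against healthy, the smallest that 4 against 4 allows, and an adjusted p = 0.0361 over the 24 ratio tests. Acute 24 h, with 3 libraries, gave an exact permutation p = 0.0571 (adjusted p = 0.0596). This is the smallest possible there, and the design cannot reach 0.05.

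Col3a1, the single chain of type III collagen, was the most abundant of the 10 genes per kilobase in every group. The 4 healthy libraries were tightly placed at 2677, 2744, 2619 and 2579 CPM, and acute 24 h libraries at 2731, 1518 and 2063 CPM were not called different (log2FC -0.34 ± 0.27, adjusted p = 0.359). Acute 72 h libraries held 8668, 7283, 18780 and 17040 CPM, with replicates 1 and 2 again below replicates 3 and 4 (log2FC 2.29 ± 0.26, adjusted p = 1.34e-06). Acute 7 d libraries held 26670, 27790, 26040 and 19200 CPM, all above every other library of the series (log2FC 3.23 ± 0.27, adjusted p = 2.13e-08). Chronic 24 h gave 8335, 9561, 11150 and 8744 CPM (log2FC 1.83 ± 0.25, adjusted p = 6.5e-06) and chronic 72 h 11470, 8986, 14880 and 10190 CPM (log2FC 2.10 ± 0.25, adjusted p = 3.43e-06). Chronic 14 d gave 4199, 3436, 4946 and 4385 CPM. These libraries lay above the healthy range, but the change did not pass the test (log2FC 0.68 ± 0.25, adjusted p = 0.0897). The annotated miRNA gene Gm47302 overlaps exons of Col3a1 on the same strand. The ratio of Col3a1 to Col1a1 counts fell from 12 in healthy to 1.69 at chronic 24 h, the lowest group, and 2.82 at acute 7 d (exact permutation p = 0.0286, adjusted p = 0.0361 for both). At chronic 14 d it was 7.11, overlapping healthy (exact permutation p = 0.0857, adjusted p = 0.0857).

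**Figure D3:**
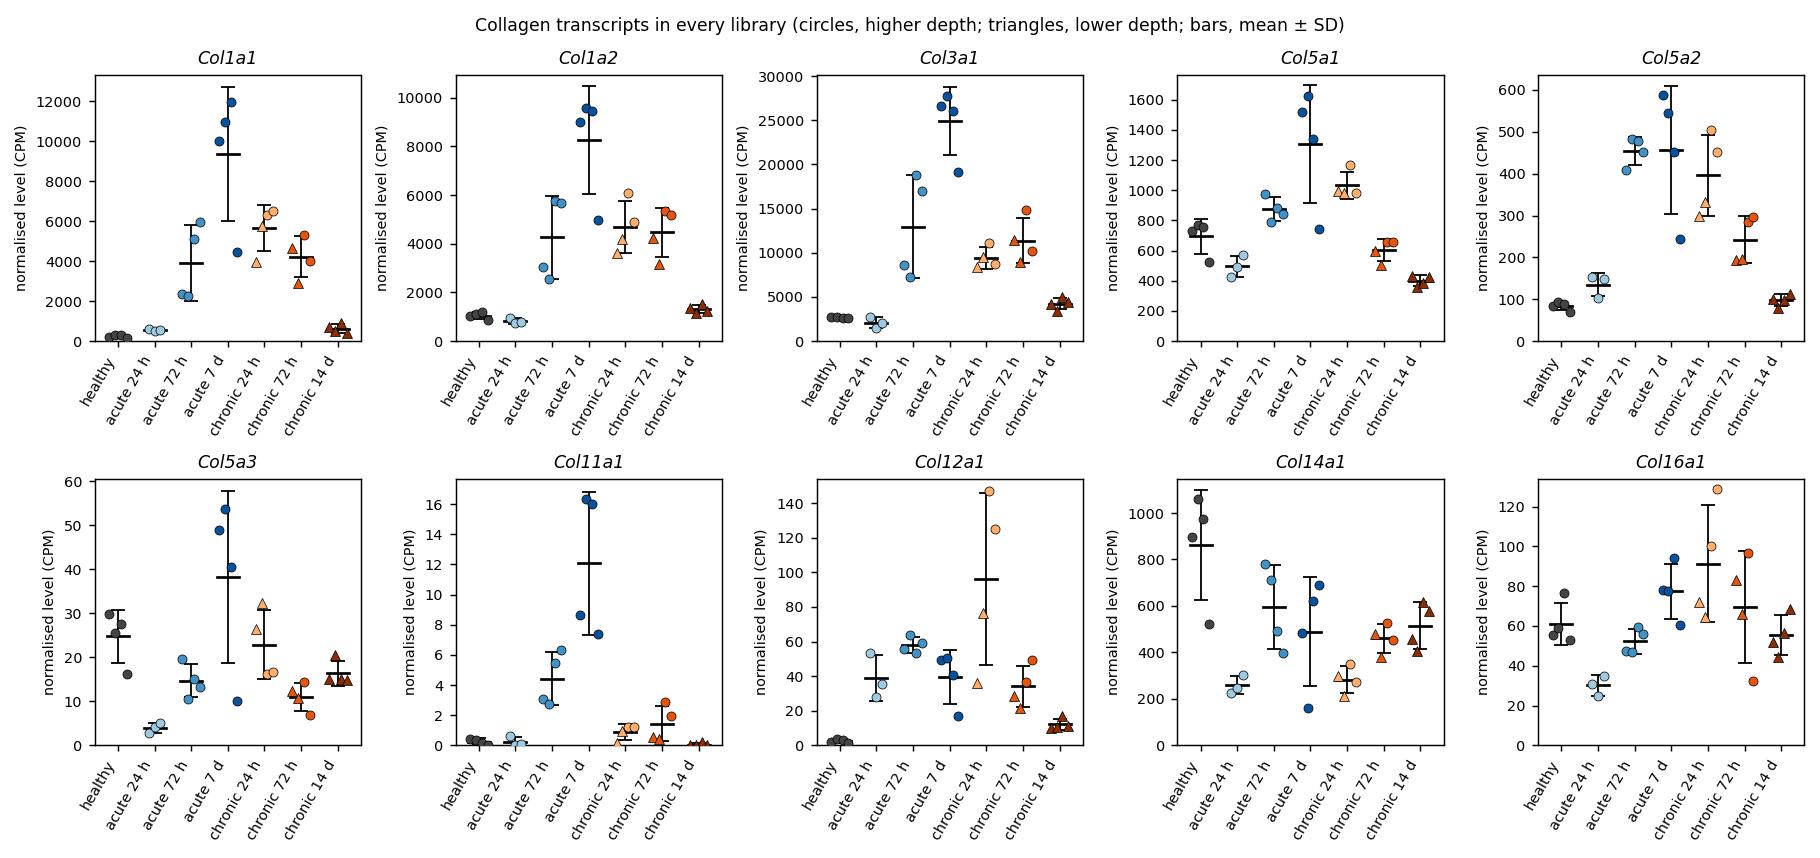
TMM-scaled level (y axis, CPM, each panel with its own scale from 0) of the 10 collagen genes in every library of the 7 groups (x axis); circles are libraries of higher depth, triangles those below 9000000 counts, bars mean ± SD (n = 4, acute 24 h n = 3), with bars cut at 0. Col1a1, Col1a2 and Col3a1 are highest at acute 7 d, Col12a1 at chronic 24 h, and Col14a1 in healthy HSCs.

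Type V collagen, whose chains are woven into type I fibrils and control their diameter, did not move as a unit. Col5a1 (ENSMUSG00000026837, chr2:27886425-28039514, plus strand) was 729, 769.9, 757 and 522 CPM in healthy and was called in none of the 6 comparisons with healthy. Its mean ran from 402 ± 35.2 CPM at chronic 14 d (SD, n = 4) to 1308 ± 392 CPM at acute 7 d. At acute 7 d the change had a low adjusted p but stayed under 2-fold (log2FC 0.91 ± 0.18, adjusted p = 0.000765). The libraries there held 1517, 1626, 1343 and 746 CPM, and only replicate 4 overlapped the healthy range. Scaled by library size alone, this change was called, so the missing call sits at the threshold. At chronic 14 d Col5a1 was below the healthy range, also by less than 2-fold (log2FC -0.79 ± 0.18, adjusted p = 0.00724). Exons of 2810430I11Rik and Gm13372 overlap Col5a1 on the opposite strand, and whether counting used strand is not given, so its level is less certain. Col5a2, by contrast, was 84.5, 92.4, 88.6 and 68.9 CPM in healthy and 153, 103 and 148 CPM at acute 24 h, under 2-fold and not called (log2FC 0.69 ± 0.24, adjusted p = 0.03). All acute 72 h libraries lay above both, at 408, 482, 478 and 452 CPM (log2FC 2.44 ± 0.24, adjusted p = 2.23e-07). It was 588, 544, 452 and 245 CPM at acute 7 d (log2FC 2.45 ± 0.24, adjusted p = 1.84e-07) and 299.5, 331, 504 and 451 CPM at chronic 24 h (log2FC 2.24 ± 0.23, adjusted p = 1.59e-07). Chronic 72 h libraries were lower, at 194, 196, 285 and 296 CPM (log2FC 1.54 ± 0.23, adjusted p = 3.95e-05), and chronic 14 d libraries overlapped healthy at 78 to 114 CPM. In chronic 24 h and chronic 72 h the 2 lower-depth libraries had less Col5a2 than the higher-depth ones, and with higher-depth libraries alone the changes were 2.52 and 1.83 on the log2 scale.

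Healthy libraries held 8.26 Col5a1 counts per Col5a2 count (log2 3.05 ± 0.09, n = 4), a narrow range. The ratio was 3.72 at acute 24 h, 1.92 at acute 72 h, 2.89 at acute 7 d, 2.66 at chronic 24 h, 2.53 at chronic 72 h and 4.11 at chronic 14 d. Every injured library was below every healthy one, at chronic 14 d too (exact permutation p = 0.0286, adjusted p = 0.0361 for each group of 4). Col5a3, the third type V chain (ENSMUSG00000004098, chr9:20770050-20815067, minus strand), was a minor transcript with 29.9, 25.4, 27.6 and 16.2 CPM in healthy. It fell at acute 24 h to 2.85, 4.08 and 5.18 CPM (log2FC -2.62 ± 0.43, adjusted p = 5.04e-05), below every library of the other groups. At acute 7 d it was 48.8, 53.6, 40.4 and 10.2 CPM, a wide spread that was not called (log2FC 0.63 ± 0.35, adjusted p = 0.212). At chronic 72 h it was called lower at 12.3, 10.7, 14.4 and 6.82 CPM (log2FC -1.17 ± 0.36, adjusted p = 0.0242). This call was lost with higher-depth libraries alone (log2FC -1.19, adjusted p = 0.127). It was also lost without replicate 1 or 3 of healthy, or replicate 2 or 4 of chronic 72 h (adjusted p = 0.0557 to 0.0911).

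Col11a1, a type XI chain best known from cartilage that co-assembles with type V chains, was at the limit of detection in healthy HSCs, with 5, 4, 2 and 0 counts in the 4 libraries. Acute 24 h gave 7, 0 and 1 counts, and acute 72 h 35, 32, 67 and 82 counts (log2FC 4.09 ± 0.81, adjusted p = 0.000782). Acute 7 d gave 107, 199, 199 and 96 counts, or 7.36 to 16.3 CPM, above all libraries of other groups (log2FC 5.53 ± 0.84, adjusted p = 4.17e-05). The summed acute 7 d counts, corrected for library size, were 48.8 times the healthy ones (95% exact interval 27.1 to 98.3, which covers counting error only). After chronic injury the response was small: 1, 7, 14 and 15 counts at 24 h, 4, 3, 37 and 25 at 72 h and 0, 0, 2 and 0 at 14 d. Only chronic 72 h was called (log2FC 2.54 ± 0.81, adjusted p = 0.029), with ranges that overlap healthy and the higher-depth replicates 3 and 4 holding most counts. That call was lost when replicate 3 or 4 of healthy or replicate 3 or 4 of chronic 72 h was left out (adjusted p = 0.0598 to 0.103). The chronic 14 d counts, 2 in all, were 0.27 times healthy with an interval of 0.0291 to 1.24, a difference not detectable at this depth.

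Among the FACITs, Col12a1 (type XII, a collagen of tendon and of tissue under load, ENSMUSG00000032332, chr9:79598991-79718831, minus strand) had the highest fold change of the 10 genes at acute 24 h and at chronic 24 h. Healthy libraries held only 1.9, 3.51, 3.37 and 1.56 CPM. At acute 24 h the 3 libraries already held 53.5, 27.9 and 35.5 CPM (log2FC 3.91 ± 0.44, adjusted p = 5.49e-07, 15-fold), when Col1a2, Col3a1 and Col5a2 were not called. Acute 72 h libraries were close together at 56, 63.6, 53.5 and 59.2 CPM (log2FC 4.48 ± 0.43, adjusted p = 2.23e-07). Acute 7 d libraries lay below them at 49.3, 50.6, 40.7 and 17.1 CPM (log2FC 3.93 ± 0.42, adjusted p = 7.78e-07). The highest mean was at chronic 24 h, with 35.8, 76.5, 147 and 125 CPM (log2FC 5.21 ± 0.45, adjusted p = 9.66e-09, 37-fold). Within that group the lower-depth replicates 1 and 2 were below the higher-depth replicates 3 and 4, and all 4 were above every healthy library. Chronic 72 h libraries held 28.8, 21.7, 36.8 and 49.5 CPM (log2FC 3.72 ± 0.42, adjusted p = 1.42e-06). Chronic 14 d libraries held 9.99, 10.4, 17.2 and 11.2 CPM, each still above every healthy library (log2FC 2.24 ± 0.41, adjusted p = 0.00111).

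Col14a1, the type XIV FACIT (ENSMUSG00000022371, chr15:55307750-55520803, plus strand), was abundant at rest and lower shortly after injury. It was 898, 1059, 974 and 522 CPM in healthy, replicate 4 being the lowest, and 226, 248 and 302 CPM at acute 24 h (log2FC -1.74 ± 0.35, adjusted p = 0.000479). Chronic 24 h libraries lay in much the same range at 297, 211, 350.2 and 273 CPM (log2FC -1.61 ± 0.31, adjusted p = 0.000388). All libraries of these 2 groups were below all healthy ones. Acute 72 h (399.6 to 783 CPM), acute 7 d (162 to 689.8 CPM), chronic 72 h (379.6 to 528 CPM) and chronic 14 d (406 to 619 CPM) had means below healthy, but none was called. Their adjusted p were 0.232, 0.0573, 0.0404 and 0.142, and at chronic 72 h the change was under 2-fold (log2FC -0.91 ± 0.31). Within acute 7 d replicate 2 stood at the lower end and replicates 3 and 4 at the upper. The ratio of Col12a1 to Col14a1 counts within a library separated all injured from all healthy libraries, with 0.00298 in healthy, 0.146 at acute 24 h, 0.0848 at acute 7 d, 0.303 at chronic 24 h and 0.0235 at chronic 14 d. The difference from healthy on the log2 scale was 6.67 at chronic 24 h and 2.98 at chronic 14 d (exact permutation p = 0.0286, adjusted p = 0.0361 each). Col16a1, the type XVI FACIT (ENSMUSG00000040690, chr4:130047840-130099283, plus strand), was 55.3, 59.2, 76.5 and 52.9 CPM in healthy and was called only at acute 24 h, lower at 31.1, 24.6 and 34.8 CPM (log2FC -1.02 ± 0.28, adjusted p = 0.00676). That change sits at the 2-fold threshold and was under it without replicate 3 of healthy or replicate 2 of acute 24 h (log2 fold change -0.89 in both). In the other groups it ranged from 32.2 to 129 CPM.

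**Figure D4:**
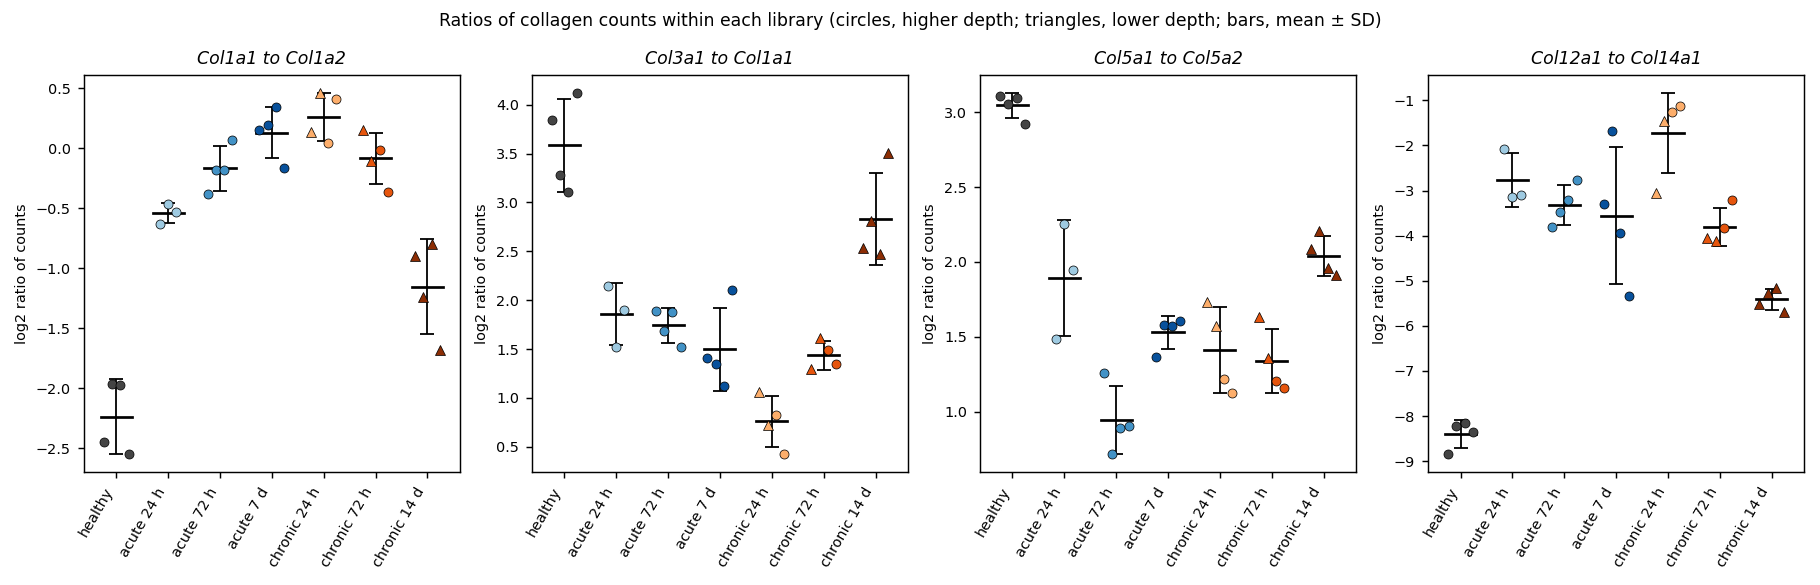
Log2 ratio of counts within each library (y axis) for 4 pairs of collagen genes in the 7 groups (x axis); circles are libraries of higher depth, triangles those below 9000000 counts, bars mean ± SD. In the Col1a1 to Col1a2, Col5a1 to Col5a2 and Col12a1 to Col14a1 panels no injured library overlaps the healthy range, and in the Col3a1 to Col1a1 panel only chronic 14 d does.

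The time after the last dose was compared within each course. From acute 24 h to acute 72 h 7 of 10 genes were called higher and 0 lower (all genes, 11.2% higher and 3.76% lower). The log2FC were those of Col1a1 (2.79 ± 0.40), Col1a2 (2.37 ± 0.29), Col3a1 (2.62 ± 0.29), Col5a2 (1.76 ± 0.25), Col5a3 (1.86 ± 0.42), Col11a1 (4.16 ± 0.92) and Col14a1 (1.21 ± 0.34). Without replicate 1 of acute 24 h the Col14a1 call was lost (adjusted p = 0.0614). The Col12a1 difference did not pass the test (log2FC 0.58 ± 0.40, adjusted p = 0.33). From chronic 24 h to chronic 72 h none was called higher and 1 lower (4.72% and 3.65%), Col12a1 (log2FC -1.49 ± 0.37, adjusted p = 0.00785). Within lower depth, 2 libraries against 2, the Col12a1 difference did not pass the test (log2FC -1.12, adjusted p = 0.204). Col5a3 missed the call narrowly (log2FC -1.04 ± 0.36, adjusted p = 0.0515), and Col1a1, Col1a2 and Col3a1 had overlapping ranges (-0.42 ± 0.34, -0.07 ± 0.25 and 0.27 ± 0.24).

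The difference between these 2 courses was itself tested. The change from 24 to 72 h was called lower after chronic than after acute injury for 8 of 10 genes and higher for 0, where 6.46% and 2.28% of all genes were called. The log2 difference (chronic minus acute) was -3.21 ± 0.52 for Col1a1 (adjusted p = 0.000281), -2.44 ± 0.38 for Col1a2 (adjusted p = 0.000188), -2.35 ± 0.37 for Col3a1 (adjusted p = 0.000223) and -2.47 ± 0.34 for Col5a2 (adjusted p = 5.35e-05). For Col5a1 it was -1.59 ± 0.27 (adjusted p = 0.000449), for Col5a3 -2.90 ± 0.55 (adjusted p = 0.00128) and for Col12a1 -2.06 ± 0.55 (adjusted p = 0.016). Col16a1 was borderline (-1.19 ± 0.37, adjusted p = 0.0426), and its call was lost when any one of 8 libraries was left out (adjusted p = 0.0543 to 0.14). Col11a1 (-3.45 ± 1.15, adjusted p = 0.0549) and Col14a1 (-0.50 ± 0.45, adjusted p = 0.552) were not called. Without replicate 2 of acute 24 h the Col12a1 call was lost as well (adjusted p = 0.0623). With higher-depth libraries alone the count was 6, without Col5a3 (adjusted p = 0.0543) and Col16a1 (adjusted p = 0.0512).

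**Figure D5:**
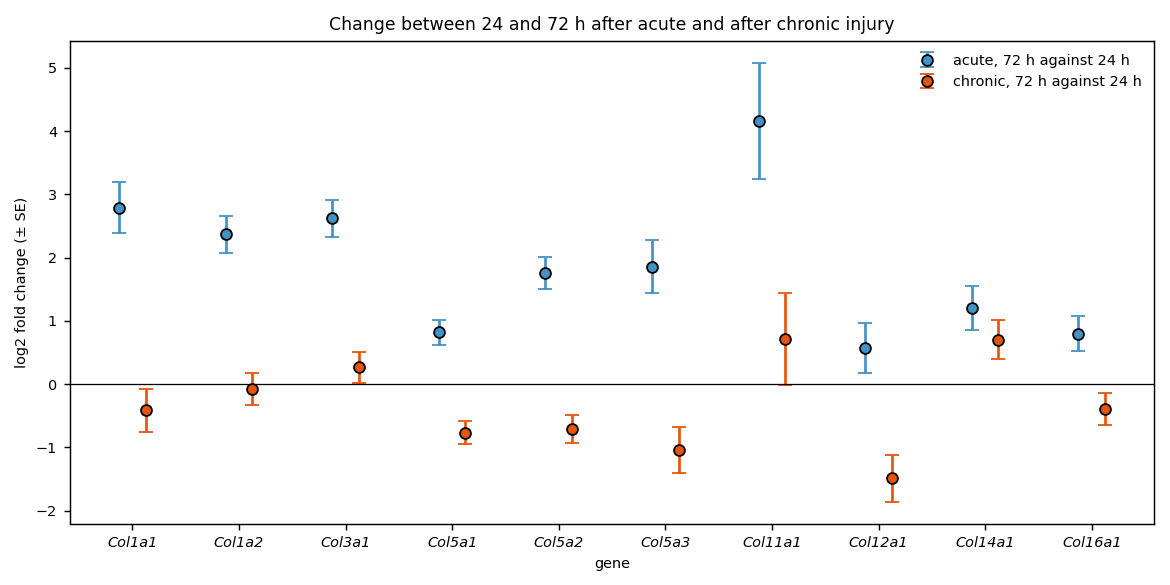
Log2 fold change from 24 to 72 h (y axis, ± SE) of each collagen gene (x axis) after acute injury (blue) and after chronic injury (orange). The acute change is above the chronic one for all 10 genes, from 0.58 to 4.16 after acute and -1.49 to 0.71 after chronic injury.

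At matched times the courses differed at 24 h. Against acute 24 h, chronic 24 h had 8 genes called higher and 0 lower (10.9% and 3.05% of all genes). Among the highest were Col1a1 (log2FC 3.32 ± 0.41, adjusted p = 4.68e-06), Col1a2 (log2FC 2.51 ± 0.30, adjusted p = 2.12e-06) and Col5a3 (log2FC 2.49 ± 0.43, adjusted p = 0.000177). Col3a1 followed (log2FC 2.17 ± 0.28, adjusted p = 8.83e-06). Col16a1 (1.60 ± 0.29), Col5a2 (1.56 ± 0.25), Col12a1 (1.30 ± 0.41, overlapping ranges) and Col5a1 (1.06 ± 0.20) were also called. The Col12a1 call was lost without replicate 2 or 3 of acute 24 h or replicate 3 or 4 of chronic 24 h (adjusted p = 0.0778 to 0.124). Col5a1 came under 2-fold without replicate 1 of acute 24 h or replicate 3 of chronic 24 h. The Col14a1 difference was within the spread of the libraries (0.13 ± 0.33, adjusted p = 0.833). At 72 h none of the 10 was called in either direction (5.11% and 4.01% of all genes). DESeq2 gave 0 as well, where it called 1317 of all genes higher and 780 lower. In the reported edgeR fit 4 of the 10 had an unadjusted p under 0.05, which was not counted over all genes. Col5a2 and Col5a1 were lower in chronic 72 h with separate ranges but under 2-fold (-0.91 ± 0.23 and -0.53 ± 0.18 on the log2 scale, adjusted p = 0.00819 and 0.0491). Col12a1 was also below acute 72 h in every library, but did not pass the test (log2FC -0.76 ± 0.37, adjusted p = 0.175). For Col1a1, Col1a2 and Col3a1 the differences were 0.11 ± 0.34, 0.07 ± 0.25 and -0.19 ± 0.24, within the spread of the libraries.

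In the week after a single dose some of the collagen genes rose further. From acute 72 h to acute 7 d 2 genes were called higher and 0 lower (5.08% and 2.73% of all genes). These were Col1a1 (log2FC 1.26 ± 0.34, adjusted p = 0.0175) and Col5a3 (log2FC 1.39 ± 0.36, adjusted p = 0.013), both with overlapping ranges. Col1a2 and Col3a1 had low adjusted p but stayed just under 2-fold (log2FC 0.95 ± 0.25, adjusted p = 0.0147, and log2FC 0.95 ± 0.25, adjusted p = 0.0137). Col5a1, Col11a1 and Col16a1 were higher without a call. Col12a1 was lower in every library, but did not pass the test (log2FC -0.56 ± 0.37, adjusted p = 0.337). Col14a1 (-0.29 ± 0.31) and Col5a2 (0.01 ± 0.22) were within the spread of the libraries. The count of 2 called genes rested on single libraries. The Col1a1 call was lost without replicate 1 or 2 of acute 72 h or replicate 3 of acute 7 d, and that of Col5a3 without replicate 2 of acute 72 h. Col1a2 and Col3a1 were called without replicate 3 or 4 of acute 72 h or replicate 4 of acute 7 d. The count ran from 0 to 4 over these fits. Replicate 4 of acute 7 d was the lowest of its group in 9 of the 10 genes and the highest in Col14a1. Its portal fibroblast markers summed to 881 CPM and its cholangiocyte markers to 758 CPM, beside 1100 to 1397 and 2440 to 4797 CPM in the other 3. The cholangiocyte sum came mostly from Spp1, and Cftr was at or near 0. Its macrophage sum of 6982 CPM lay within theirs (4080 to 10600 CPM). The part of these cells in the collagen levels was not tested.

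Since acute 7 d held the highest fibrillar collagen levels, it was also compared with the chronic groups. This comparison, between different times, was added after the levels were seen. The group was picked for its high levels, so the adjusted p of these 2 comparisons do not allow for that choice and favour calls of higher. Against chronic 24 h, Col3a1 (log2FC 1.40 ± 0.25, adjusted p = 0.000543) and Col11a1 (log2FC 3.71 ± 0.74, adjusted p = 0.00147) were called higher and Col12a1 lower (log2FC -1.28 ± 0.37, adjusted p = 0.02). These are 2 and 1 of 10 genes, where 4.87% and 3.31% of all genes were called. The Col12a1 call was lost without replicate 4 of acute 7 d or replicate 3 or 4 of chronic 24 h (adjusted p = 0.0659 to 0.0921). Against chronic 72 h, 3 were called higher and 0 lower (0.267% and 0.165% of all genes). These were Col3a1 (log2FC 1.13 ± 0.25, adjusted p = 0.0325), Col5a1 (log2FC 1.11 ± 0.18, adjusted p = 0.00707) and Col5a3 (log2FC 1.79 ± 0.36, adjusted p = 0.0216). With higher-depth libraries alone none of these was called (20 higher and 26 lower over all genes). Leaving out single libraries gave 0 to 7 calls. Col3a1 and Col5a3 were lost without any one of replicates 1 to 3 of acute 7 d or replicates 1, 2 and 4 of chronic 72 h, and Col5a1 without replicate 2 of acute 7 d. Without replicate 4 of acute 7 d, Col1a1, Col1a2, Col5a2 and Col11a1 were gained. Recovery from the chronic course was read from chronic 14 d against chronic 24 h, where 7 genes were called lower and 0 higher (6.11% and 6.65% of all genes). Col1a1 (log2FC -3.18 ± 0.37, adjusted p = 1.86e-06) and Col12a1 (log2FC -2.98 ± 0.40, adjusted p = 1.04e-05) fell most among the well-counted genes. Next came Col5a2 (-2.01 ± 0.23), Col1a2 (-1.83 ± 0.26), Col5a1 (-1.36 ± 0.18) and Col3a1 (-1.16 ± 0.25 log2FC). Col11a1, with 2 counts at 14 d and 37 at 24 h, was called as well (adjusted p = 0.0191), a call lost without replicate 1, 2 or 4 of chronic 14 d. The ratio of counts was 0.0679 (95% exact interval 0.00793 to 0.263). For Col14a1 the difference was under 2-fold (log2FC 0.87 ± 0.31, adjusted p = 0.0454). Lower depth applied to 4 of 4 libraries at chronic 14 d and to 2 of 4 at chronic 24 h. Within lower depth, 4 libraries against 2, the 6 well-counted genes were again called lower (log2FC -2.91 for Col1a1, -2.14 for Col12a1 and -1.02 for Col3a1, adjusted p = 0.00352, 0.00827 and 0.0201). Col14a1 was then called higher (log2FC 1.08, adjusted p = 0.0367), and Col11a1 did not pass the filter on low counts.

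The genes that modify, process and bind these collagens were counted by list, each against healthy. Counts at 72 h are given for the first list only. Of the enzymes and chaperones that act on collagen chains in the endoplasmic reticulum, 7 of 20 tested genes rose and 1 fell at chronic 24 h (11.2% and 8.11% of all genes). The counts were 5 and 1 at acute 7 d (9.23% and 5.64%) and 1 and 1 at acute 24 h (9.41% and 12.5%). At chronic 14 d they were 0 and 2 (4.55% and 1.17%). At acute 72 h they were 4 and 0 (8.23% and 4.33%), and at chronic 72 h 2 and 1 (7.88% and 4.2%). Plod2, a lysyl hydroxylase whose product favours stable crosslinks, rose from 24.3 ± 1.61 to 82.7 ± 29.6 CPM at chronic 24 h (log2 fold change 1.77 ± 0.25, adjusted p = 9.56e-06). P4ha3, a prolyl 4-hydroxylase subunit, had no count in any healthy library and 3.13 ± 1.53 CPM at chronic 24 h and 12.5 ± 7.19 CPM at acute 7 d. Colgalt2, a collagen galactosyltransferase, fell from 5.16 ± 2.51 to 0.312 ± 0.232 CPM (log2 fold change -4.05 ± 0.83, adjusted p = 0.000597). Of the procollagen proteinases and crosslinking enzymes, 4 of 12 tested genes rose and 0 fell at chronic 24 h (11.2% and 8.11% of all genes). The counts were 6 and 0 at acute 7 d (9.23% and 5.64%), 2 and 0 at acute 24 h (9.41% and 12.5%), and 1 and 0 at chronic 14 d (4.55% and 1.17%). Lox, the lysyl oxidase that starts crosslinking, went from 7.41 ± 2.08 CPM in healthy to 631 ± 353 at chronic 24 h (log2 fold change 6.41 ± 0.53, adjusted p = 6.36e-09) and 380.0 ± 118 at acute 7 d. Loxl2 (3.11 ± 0.41, adjusted p = 3.7e-06) and Loxl1 (1.86 ± 0.24, adjusted p = 3.19e-06) rose at chronic 24 h as well. At chronic 72 h Lox stood at 78.7 ± 33.6 CPM, Loxl2 at 62.3 ± 8.31 CPM and Loxl1 at 418.7 ± 100.5 CPM. Of the proteins that sit on fibrils or guide their assembly, 8 of 18 tested genes rose and 3 fell at chronic 24 h (11.2% and 8.11% of all genes). The counts were 7 and 0 at acute 7 d (9.23% and 5.64%), 1 and 5 at acute 24 h (9.41% and 12.5%), and 4 and 0 at chronic 14 d (4.55% and 1.17%). Thbs1, a matricellular protein that activates latent TGF-β, stood at 98.1 ± 30.4 CPM in healthy and 2065 ± 698 CPM at acute 24 h. It rose to 5691 ± 1381 CPM at chronic 24 h (5.86 ± 0.38, adjusted p = 1.53e-10) and was 541 ± 225 CPM at acute 7 d. Dpt, dermatopontin, rose at both times (2.99 ± 0.33, adjusted p = 3.36e-07, and 2.90 ± 0.33, adjusted p = 1.41e-06), and Ogn, a small leucine-rich proteoglycan, fell at chronic 24 h (-1.94 ± 0.30, adjusted p = 2.89e-05).

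Of the cell-surface collagen receptors and uptake receptors, 4 of 9 tested genes rose and 0 fell at chronic 24 h (11.2% and 8.11% of all genes). The counts were 3 and 0 at acute 7 d (9.23% and 5.64%), 0 and 0 at acute 24 h (9.41% and 12.5%), and 1 and 0 at chronic 14 d (4.55% and 1.17%). Itga11, a chain of an integrin for fibrillar collagen, rose from 2.75 ± 1.08 to 12.8 ± 6.25 CPM at chronic 24 h (2.22 ± 0.38, adjusted p = 9.04e-05). Itga2 was at 0.151 ± 0.2 and 2.28 ± 1.43 CPM (3.80 ± 0.97, adjusted p = 0.00432). Lair1, an inhibitory collagen receptor of leukocytes, was at 2.15 ± 1.07 and 18.6 ± 9.04 CPM (3.10 ± 0.45, adjusted p = 1.21e-05), beside the higher macrophage sums given above. Of the collagenases, cathepsins and their inhibitors, 9 of 11 tested genes rose and 0 fell at chronic 24 h (11.2% and 8.11% of all genes). The counts were 7 and 0 at acute 7 d (9.23% and 5.64%), 3 and 1 at acute 24 h (9.41% and 12.5%), and 4 and 0 at chronic 14 d (4.55% and 1.17%). Timp1, which inhibits metalloproteinases, went from 0.633 ± 0.731 to 149 ± 18.5 CPM at chronic 24 h (7.86 ± 1.10, adjusted p = 9.56e-06). It was 95.5 ± 6.02 CPM at acute 24 h and 11.3 ± 5.88 CPM at chronic 72 h. The neutrophil collagenase Mmp8 and the gelatinase Mmp9 had no count in healthy libraries and 3.26 ± 1.41 and 6.51 ± 2.56 CPM at chronic 24 h. Of the other fibrillar and FACIT collagens, 5 of the 10 in the table passed the filter. At chronic 24 h only Col9a2 was called higher and only Col24a1 lower (11.2% and 8.11% of all genes). Col24a1, a minor fibrillar collagen, fell from 21.1 ± 5.22 to 1.46 ± 0.69 CPM at chronic 24 h (-3.80 ± 0.39, adjusted p = 1.32e-07). Col9a2, a chain of the FACIT type IX, rose from 0.375 ± 0.482 to 4.64 ± 1.55 CPM (3.59 ± 0.83, adjusted p = 0.00194). Of the ligands, receptors and targets of TGF-β signalling, 3 of 12 tested genes rose and 0 fell at chronic 24 h (11.2% and 8.11% of all genes). The counts were 2 and 1 at acute 7 d (9.23% and 5.64%), 2 and 0 at acute 24 h (9.41% and 12.5%), and 2 and 1 at chronic 14 d (4.55% and 1.17%). Tgfb3 (3.69 ± 0.29, adjusted p = 3.02e-09) and Tgfb2 (2.76 ± 0.30, adjusted p = 3.18e-07) rose at chronic 24 h. Ccn2, a TGF-β target, rose at chronic 24 h to 3268 ± 1823 CPM (3.23 ± 0.85, adjusted p = 0.00553). Its highest mean was at acute 24 h, 4521 ± 1161 CPM, and at chronic 72 h it was 365 ± 301 CPM. It stood at 339.8 ± 205 CPM at acute 7 d beside 348 ± 203 CPM in healthy (-0.03 ± 0.78, adjusted p = 0.982). The median log2 fold change over all genes was -0.03 at chronic 24 h.

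The genes whose change from healthy was most like that of 3 collagen genes were found by the root mean square difference of the log2 changes over the 6 injured groups, among the 10292 genes whose mean log2 CPM reached 3. Nearest to Col1a1 were Rpp25 (0.60), Lgals3 (0.76), Ptgs2 (0.83), Vegfd (0.88) and Fhl2 (0.91), the difference in brackets. Nearest to Col12a1 were Gpr39 (0.47), Tpbg (0.63), Plat (0.71), Mmp19 (0.73) and Rpp25 (0.75). Nearest to Col14a1 were Pcdhgb4 (0.16), Prelp (0.18), Plcb1 (0.22), Pcdhgb8 (0.23) and Klhl23 (0.24). The protocadherins among these share exons within their cluster, and their counts are uncertain. Among the collagen genes, Col12a1 ranked 21 in likeness to Col1a1, Col3a1 133, Col1a2 145, Col5a2 157 and Col14a1 9886. This measure compares sizes of change as well as their course, and carries no test.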

How the data were processed

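The authors mapped RNA-seq reads of sorted HSCs with STAR to GRCm38 and counted with StringTie, per the labels; their versions, annotation and strand setting are not given in the sources used here. The deposited table holds raw counts (whole reads per gene) of 53379 Ensembl genes, of which 53274 were matched to GENCODE M21. Per the study's methods each repeat was a separate experiment. Groups followed the sample labels.

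Genes were filtered by group (filterByExpr, 18758 kept) and scaled by TMM. They were tested with the quasi-likelihood test of edgeR 4.0.16 in 1 model over all 27 libraries. Adjustment was by Benjamini-Hochberg over all genes, with a 2-fold minimum for a call. Errors of log2 fold changes are approximate standard errors derived from the F statistic, and those of levels are SD. The test was also run on counts simulated from its own fitted model, which does not show how it fares where the data depart from that model. Ratios of counts (pseudocount 0.5) were compared by exact two-sided permutation of libraries (SciPy), 24 tests adjusted together. Alternatives were size factors of DESeq2, library size alone, DESeq2 itself, other filters and thresholds, only the groups compared, the replicate number as a block, depth class as a term, higher-depth libraries alone (over 9000000 counts), lower-depth libraries alone (added after the data were seen), and each library left out in turn. All 10 genes are named in full; from each pathway list up to 3 genes with the highest absolute change among those called at chronic 24 h against healthy; and the 5 genes nearest in pattern to Col1a1, Col12a1 and Col14a1. The collagen genes and lists were chosen with earlier results of these data known. Intervals on counts cover counting error only. Markers of mesothelial cells, smooth muscle, hepatocytes and sinusoidal endothelium were summed too.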

Additional observations from a re-analysis of the deposited data

Results flagged for a closer look

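The change from 24 to 72 h differed between the courses for 8 of the 10 genes by the interaction test, as given above: the log2 difference, chronic minus acute, was -3.21 for Col1a1, -2.44 for Col1a2, -2.35 for Col3a1, -1.59 for Col5a1, -2.47 for Col5a2, -2.90 for Col5a3, -2.06 for Col12a1 and -1.19 for Col16a1. All 3 acute 24 h libraries and the 12 others of this test enter each of these differences, so they are not independent of one another.

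In 90 groups of 4 values (levels, shares and ratios), 7 held a library far from the other 3 by Dixon's criterion, where chance flags about 1 in 20. Col1a2 was 4980 CPM in replicate 4 of acute 7 d, beside 9020 to 9590 CPM in the others. Col5a1 was 522 CPM in replicate 4 of healthy, beside 729 to 770, and 1170 CPM in replicate 3 of chronic 24 h, beside 983 to 993. In chronic 14 d Col5a3 was 20.5 CPM in replicate 2, beside 14.8 to 15, and replicate 3 was the highest in Col12a1 (17.2 CPM, beside 9.99 to 11.2) and in Col11a1 (0.24 CPM, from 2 counts, beside 0 in the others). The log2 ratio of Col5a1 to Col5a2 was 1.37 in replicate 1 of acute 7 d, beside 1.57 to 1.61.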

How the results depend on the processing

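No collagen gene changed direction under any alternative while called in it or in the fit as reported. The number of genes called stayed within 1.5 times of the reported one under each alternative in 11 of the 15 comparisons. The exceptions were these. Chronic 72 h against chronic 24 h gave 1, but 2 with a filter on the mean of 1 CPM, at an adjusted p below 0.1, with the replicate block and with DESeq2, as Col5a3 was gained, and 3 with no fold minimum, as Col5a1 and Col5a2 were; leaving out single libraries gave 1 to 2. Within lower depth, an alternative added after the data were seen, it gave 1, Col5a3 in place of Col12a1. Over all genes this comparison had 886 called higher and 684 lower as reported, and 105 and 180 within lower depth. The filter of 1 CPM gave 875 and 668, an adjusted p below 0.1 gave 1150 and 815, and the replicate block 855 and 681. DESeq2 gave 1139 and 717, and no fold minimum 1417 and 1508. Acute 7 d against acute 72 h gave 2, but 4 with no filter, 5 with no fold minimum and 1 with only the groups compared. Leaving out single libraries gave 0 to 4. Over all genes it had 952 called higher and 512 lower as reported, and 834 and 330 with no filter. No fold minimum gave 1281 and 1096, and only the groups compared 998 and 418. Chronic 72 h against acute 72 h gave 0, but 2 with no fold minimum. Without single libraries it gave 0 to 1 (Col5a2, without replicate 4 of chronic 72 h). Over all genes 959 were called higher and 752 lower as reported, and 1336 and 1463 with no fold minimum. Acute 7 d against chronic 72 h gave 3, but 0 with higher-depth libraries alone or only the groups compared, and 5 with DESeq2. Leaving out single libraries gave 0 to 7. The all-gene counts moved as well, from 50 higher and 31 lower as reported to 168 and 100 with DESeq2. They were 20 and 26 with higher-depth libraries alone, and 20 and 22 with only the groups compared. Each share of counts moved by less than 1 SD when totals were scaled by TMM. Leaving out a single library cannot move a group mean by 1 SD, so those fits could not decide this. The cause of these changes was not tested.

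Replicate numbers showed no clear pairing of the libraries. Same-numbered libraries of different groups had correlations of -0.172 to 0.19 (median 0.014, 78 pairs, 15 of them above 0.1). Differently numbered ones had -0.327 to 0.322 (median -0.003, 234 pairs), and 8 of 27 libraries correlated best with their own number. These correlations do not show whether some replicates shared a batch. Apart from the 2 calls above, the replicate block gave 6 in place of 7 calls at chronic 72 h against healthy (Col11a1, adjusted p = 0.059) and the same number in the other 13 comparisons. Scaling by library size alone moved the median of all genes by up to 0.174 on the log2 scale (chronic 14 d against healthy) and changed 3 calls: Col5a1 was gained at acute 7 d against healthy (1.02), Col14a1 was gained (1.05) and Col3a1 lost (-0.98) at chronic 14 d against chronic 24 h. It moved the share of calls that were higher, over all genes, from 79.6 to 91.2% at chronic 14 d against healthy, from 52.1 to 67.2% at chronic 14 d against chronic 24 h, from 56.4 to 67.1% at chronic 72 h against chronic 24 h and from 59.6 to 70.1% at acute 7 d against chronic 24 h. Healthy held no lower-depth library, so chronic 14 d could be set against it only with depth class as a term, where Col1a1 (1.78, adjusted p = 0.0339) and Col12a1 (3.26, adjusted p = 0.000203) were again called higher. Against chronic 24 h that term gave 6 calls in place of 7, without Col11a1 (adjusted p = 0.135), and lower-depth libraries alone gave 7, with Col14a1 in place of Col11a1.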

Other observations

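Over all 27 libraries, mesothelial markers (8 genes) summed to 6.07 to 150.9 CPM and vascular smooth muscle markers (6 genes) to 393 to 1460 CPM. Hepatocyte markers (10 genes, lowest at acute 24 h) summed to 108 to 7888 CPM. Those of liver sinusoidal endothelium (8 genes) summed to 26.7 to 483 CPM. The part of these cell types in the collagen levels was not tested.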
